A study of Mus musculus with 8 samples.

Results

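Broad PBRM1 domains were the widest peaks of the PBRM1 list that the authors called on the pooled fragments of 3 ChIC-Seq replicates. They were selected on length alone, as every peak of at least 1500 bp on chromosomes 1 to 19, and 471 of 54164 peaks met this rule. Stromal cells were isolated from uteri of WT mice aged 8 to 12 weeks on day 4 of pseudopregnancy or pregnancy (the labels give both), plated for hours and fixed, and horns of 5 to 10 mice were pooled for a preparation. No knockout or treated group has peak lists in this series, so every domain describes WT chromatin. PBRM1 and BRG1 were each assayed in 3 replicates, and the 2 IgG samples were not analysed here. Nothing in the labels says that replicates came from separate pools of mice, so that the spread between them may be technical.

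PBRM1 (BAF180) is the polybromo subunit that defines the PBAF form of the SWI/SNF chromatin remodeler, and its bromodomains bind acetylated histone tails. BRG1, encoded by *Smarca4*, is an ATPase that moves nucleosomes in this complex and in the related BAF form, which lacks PBRM1. Active promoters of mammalian genes often lie in CpG islands, where an open region surrounds the transcription start site (TSS). In ChIC-Seq, an antibody guides a micrococcal nuclease fusion to its antigen in fixed nuclei and the released fragments are sequenced. A peak is a stretch where these fragments pile up over the local background, and its length says how far along the DNA the signal stays above the threshold.

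Proximal promoters of 5 of the 12 longest domains over a protein-coding TSS are printed as examples, and not as a sample that stands for all domains. Each line gives the 200 bases directly upstream of the most upstream annotated TSS inside the domain, read on the gene's strand from the GRCm38 (mm10) RefSeq genome and free of annotated exons. Capitals mark matches, on either strand and with overlaps allowed, to GGGCGG (GC box), CCAAT (NF-Y box), TGAGTCA (AP-1), TGACGTCA (cAMP response element, CRE), CCGGAAG (ETS), GCGCATG (NRF1 core), TATAAA and CACGTG (E-box). The windows are chr13:37825775-37825974 (plus strand) for *Rreb1*, chr11:102088516-102088715 (minus) for *Mpp2*, chr4:95052223-95052422 (minus) for *Jun*, chr3:58414515-58414714 (plus) for *Tsc22d2* and chr17:45573272-45573471 (minus) for *Hsp90ab1*.
Rreb1: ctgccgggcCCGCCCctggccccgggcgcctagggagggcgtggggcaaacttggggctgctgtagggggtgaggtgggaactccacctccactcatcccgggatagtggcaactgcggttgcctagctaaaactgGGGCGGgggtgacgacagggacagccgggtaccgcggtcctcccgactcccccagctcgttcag
Mpp2: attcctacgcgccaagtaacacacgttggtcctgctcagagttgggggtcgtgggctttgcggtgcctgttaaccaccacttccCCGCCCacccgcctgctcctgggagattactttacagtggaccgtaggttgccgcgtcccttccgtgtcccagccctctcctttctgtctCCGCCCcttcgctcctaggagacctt
Jun: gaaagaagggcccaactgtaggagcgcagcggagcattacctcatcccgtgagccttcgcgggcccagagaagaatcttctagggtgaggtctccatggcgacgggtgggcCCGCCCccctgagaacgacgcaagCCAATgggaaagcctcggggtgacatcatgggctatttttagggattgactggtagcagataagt
Tsc22d2: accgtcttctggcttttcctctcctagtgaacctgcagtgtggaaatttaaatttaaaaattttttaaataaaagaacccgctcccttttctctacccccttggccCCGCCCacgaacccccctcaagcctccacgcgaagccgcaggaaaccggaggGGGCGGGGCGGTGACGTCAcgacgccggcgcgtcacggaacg
Hsp90ab1: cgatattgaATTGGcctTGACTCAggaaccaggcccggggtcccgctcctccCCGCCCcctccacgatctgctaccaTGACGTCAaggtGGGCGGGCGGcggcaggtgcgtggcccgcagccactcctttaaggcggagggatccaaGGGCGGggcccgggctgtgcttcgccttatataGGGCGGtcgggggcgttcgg
All 5 windows held a GC box. The *Tsc22d2* window also held a CRE, the *Jun* window an NF-Y box, and the *Hsp90ab1* window a CRE, an AP-1 string and an NF-Y box. Windows of *Rai1*, *Prdm16*, *Enoph1* and *Hnrnpdl*, from the same 12 domains and also free of exons, are not printed. They held 1, 1, 2 and 1 matches, no more than any printed window, which held 2 to 8.

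The domains ran from 1500 to 3764 bp, with a median of 1637 bp. Of the 471 domains, 181 measured 1500 to 1599 bp and 41 measured 2000 bp or more, so that most members lay close to the threshold. The peaks just inside were those over *Prom1* (1500 bp, fold enrichment 3.77), *Tubb6* (1501 bp, 5.99) and *Eif4g2* (1501 bp, 11.2). Just outside, at 1499 bp, were peaks over *Dxo* and *Stk19* (8.97), *Frzb* (5.65) and *Hs2st1* and *Selenof* (7.68). Another 246 peaks measured 1400 to 1499 bp, so the threshold cuts through a continuous range of lengths.

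**Figure D1:**
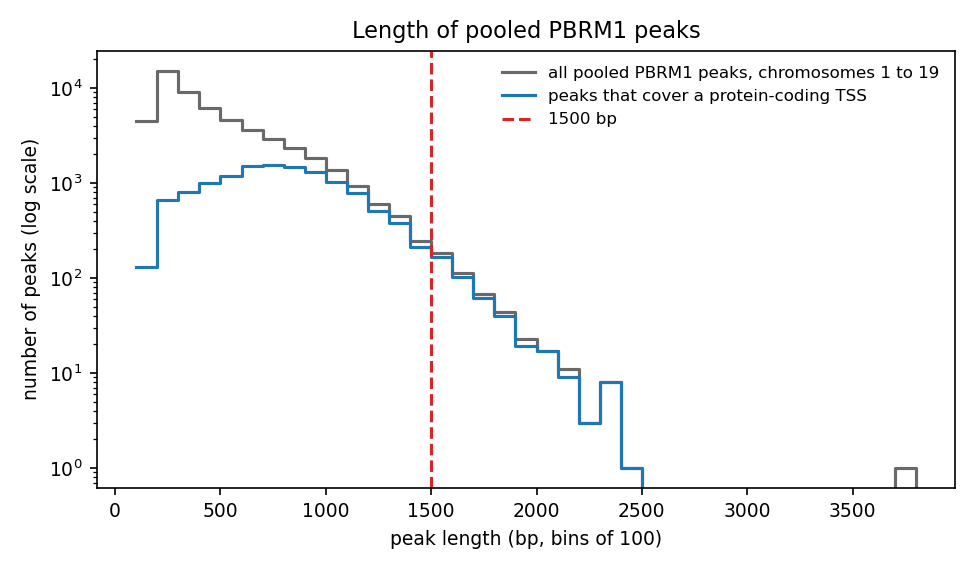
Number of pooled PBRM1 peaks on chromosomes 1 to 19 (vertical axis, log scale) against peak length in bp (horizontal axis, bins of 100 bp), for all 54164 peaks (grey) and for those that cover a protein-coding TSS (blue). The red dashed line is the 1500 bp threshold, and the 471 peaks to its right fall in a continuous tail, with 1 peak of 3764 bp apart from the rest.

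The domains had a higher pileup but a lower fold enrichment than narrower promoter peaks. Among domains that cover a protein-coding TSS, the median PBRM1 fold enrichment, the pileup at the summit divided by the local background of the library, was 6.26, and it was 6.77 in the 12541 narrower peaks (under 1500 bp) over such a TSS. The median pileup was 83 fragments in the domains and 61 in the narrower peaks. Neither was particular to the domains. Promoter peaks from 1250 bp up to 1500 bp also had a median pileup of 83. Median fold enrichment was 4.23 at those under 500 bp, 7.87 at 750 to 999 bp and 6.91 from 1250 bp up to 1500 bp. Since length chose the members and is read from the same list, these values are descriptions.

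Most broad domains were promoters. A protein-coding TSS of the GENCODE annotation lay inside 427 of 471 domains (90.7%, 95% Wilson interval 87.7 to 93.0%), beside 23.9% of all pooled PBRM1 peaks, and a longer interval has more room to hold one. Of the 246 peaks of 1400 to 1499 bp, 213 also covered one, so this trait is not particular to the domains. These 427 domains covered the TSSs of 497 protein-coding genes, which are 2.39% of the 20807 protein-coding genes on chromosomes 1 to 19. A single such gene started in 359 domains, 2 genes in 65 domains and 3 or more in 3 domains. Of the 497 genes, 63 had a further TSS under a narrower peak.

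The 12 longest promoter domains covered genes of varied function. *Rreb1*, a zinc finger factor that acts downstream of RAS, had the longest (chr13:37825444-37827907, 2464 bp). It was followed by the domain shared by *Lrrc41* and *Uqcrh* (2380 bp), the scaffold gene *Mpp2* (2361 bp), the receptor gene *Fgfr3* (2348 bp), *Kmt2e* (2342 bp), the AP-1 gene *Jun* (2335 bp) and *Rai1* (2323 bp). *Tsc22d2* (2321 bp), *Hsp90ab1*, which encodes a cytosolic HSP90 chaperone (2302 bp), and *Cdkn1a*, which encodes the cell cycle inhibitor p21 (2284 bp), came next. The last of the 12 were *Prdm16* and the pair *Enoph1* and *Hnrnpdl*, each with 2206 bp.

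In the *Jun* domain (chr4:95051324-95053658), the PBRM1 fold enrichment was 6.74, 4.54 and 4.77 in replicates 1, 2 and 3, and their peaks covered 38.2, 64.6 and 32.1% of its bases. BRG1 replicates had fold enrichments of 5.99, 5.42 and 6.66 there and covered 80.6, 48.0 and 79.0%. The BRG1 coverage was thus higher than that of 2 of the 3 PBRM1 replicates in every BRG1 library. *Jun* has a single annotated TSS, and its domain reached 1436 bp upstream and 898 bp downstream of it.

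In the *Cdkn1a* domain (chr17:29093501-29095784), the PBRM1 replicates had fold enrichments of 7.90, 5.32 and 7.57 and covered 73.4, 80.9 and 52.6%. BRG1 had 7.44, 6.42 and 7.29 and covered 68.7, 77.9 and 80.5%, so the 2 antibodies overlapped in range. This domain was one-sided, with 268 bp upstream of the first TSS and 2003 bp downstream of the last one inside. The *Fgfr3* domain (chr5:33721503-33723850) was thinner in the PBRM1 replicates, whose peaks covered 29.4, 25.7 and 28.5%, and BRG1 covered 34.2, 81.3 and 65.5%.

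**Figure D2:**
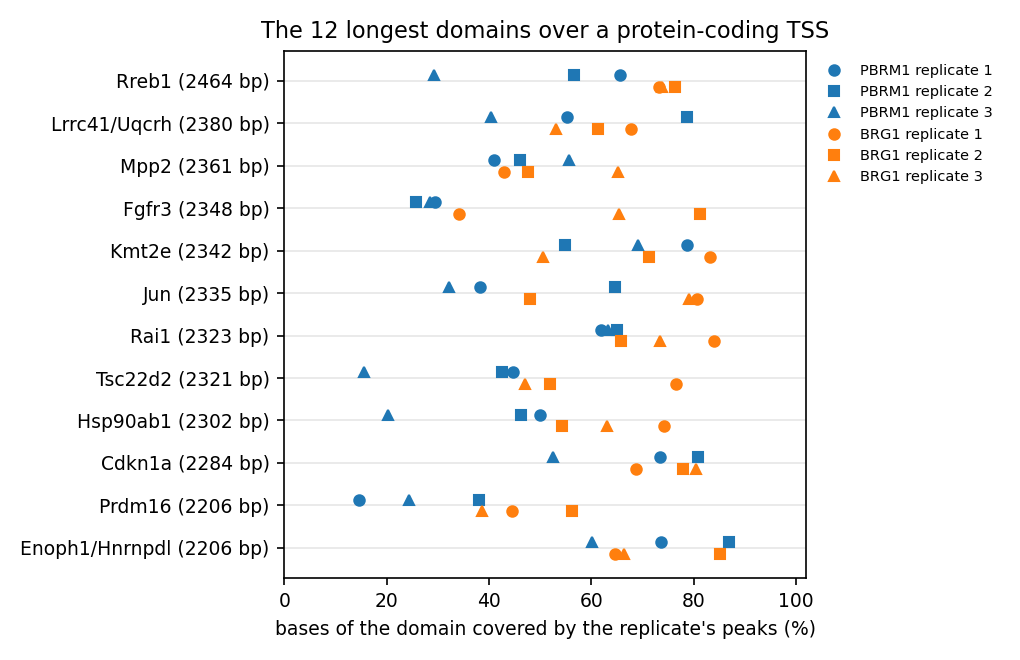
Percent of bases of each domain (horizontal axis) under the peaks of each of the 3 PBRM1 (blue) and 3 BRG1 (orange) replicate lists, for the 12 longest domains over a protein-coding TSS, with gene names and domain lengths on the vertical axis. Replicates of 1 antibody spread widely within a domain, from 15.6 to 44.7% for PBRM1 at *Tsc22d2*, while at *Rai1* the PBRM1 replicates lie between 61.9 and 65.1%.

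Domains extended to both sides of the TSS. In the 364 domains whose protein-coding genes all run on 1 strand, the median reach was 534 bp upstream (interquartile range 323 to 793) of the first TSS inside and 770 bp downstream (419 to 1122) of the last one. The downstream part was the longer in 227 of the 364 (62.4%), beside 60.4% of 11565 narrower peaks, whose median reaches were 256 and 329 bp. Genes ran in both directions from 63 of the 427 promoter domains (14.8%). Within a window of fixed size, 1000 bp to each side of the TSS, protein-coding TSSs on both strands were present at 14.5% of the promoter domains and 9.56% of the narrower peaks.

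Replicate support was near complete for the presence of a peak and low for its width. A peak was found in all 3 PBRM1 replicates in 445 of 471 domains (94.5%, 92.0 to 96.2%), beside 24.7% of all pooled PBRM1 peaks, and these libraries supplied the fragments that chose the members. Among narrower TSS peaks the share was 71.9%, and it was 92.8% at those from 1000 bp up to 1250 bp and 93.8% from there up to 1500 bp, close to the domains. A peak as long as 1500 bp was rare within a replicate. Replicates 1, 2 and 3 held such a peak in 37, 66 and 11 of the 471 domains, and 384 domains had none in any replicate. In a single replicate the signal was often broken up, with 2 or more separate peaks in 194, 198 and 177 domains. At narrower TSS peaks this was so in 3.72, 3.52 and 3.45%, and a longer interval has more room for separate peaks. The median share of a domain's bases under replicate peaks was 63.5, 70.0 and 49.2%. It was also incomplete at narrower TSS peaks, with 68.1, 75.3 and 60.1%.

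Of the 26 domains that lacked a peak in at least 1 PBRM1 replicate, 21 lacked it in replicate 3, 8 in replicate 1 and 2 in replicate 2. The 5 longest of the 26 were those over *Fzd10* (2084 bp, pileup 35), an intergenic one at chr10:77251111-77252918 (1808 bp, 30), and those over *Abr* (1757 bp, 36), *Fnbp1l* (1738 bp, 38) and *Cdk5r1* (1727 bp, 48). Replicate 3 had the most fragments (16505239, against 8868777 and 12770092 in replicates 1 and 2) and the fewest peaks of at least 1500 bp. Depth did not order the replicates by peak width.

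A few domains were a single wide peak in each library. *Nfe2l2*, which encodes the antioxidant regulator NRF2, had 1 peak of 1766, 1765 and 1645 bp in PBRM1 replicates 1, 2 and 3, and BRG1 peaks covered 93.3, 82.0 and 79.3% of its domain (chr2:75703512-75705368). The domain over the divergent genes *Jkamp* and *L3hypdh* (chr12:72084634-72086401, 1768 bp) had PBRM1 peaks of 1677, 1714 and 1592 bp. The other 3 domains with a peak of at least 1500 bp in all 3 PBRM1 replicates were those of *Gm26917* and at chr14:19415730-19417913 and chr9:3007566-3009501. The last 2 are masked as repeats in the reference over 83.1 and 98.0% of their bases, and *Gm26917* over 5.15%.

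Replicate lists of BRG1 also held few peaks this wide. On chromosomes 1 to 19, PBRM1 replicates had 37, 67 and 11 peaks of at least 1500 bp and BRG1 replicates had 97, 53 and 44, which overlap. The means were 38.3 ± 28.0 (SD, n = 3) and 64.7 ± 28.4 (SD, n = 3), and the difference, PBRM1 minus BRG1, was −26.3 (two-sided exact permutation test, p = 0.40, where 0.1 is the smallest p that 3 against 3 can give). Without BRG1 replicate 1 the difference was −10.2 and without PBRM1 replicate 3 it was −12.7, whereas without PBRM1 replicate 2 it was −40.7. The rule read PBRM1 length from fragments of these same PBRM1 libraries. The counts and their test are thus descriptions of the lists and no support for a trait of the domains. The pooled lists held 471 and 612 such peaks. BRG1 lists were the longer ones, with 39831, 35880 and 36844 peaks against 22473, 25822 and 21497 for PBRM1. As a share of each list, wide peaks were 0.165, 0.259 and 0.0512% for PBRM1 and 0.244, 0.148 and 0.119% for BRG1. In the pooled lists the order was the other way, with 0.870% for PBRM1 and 0.753% for BRG1.

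BRG1, which the rule did not use, was present at nearly all domains. A pooled BRG1 peak overlapped 470 of 471 domains, beside 78.5% of all pooled PBRM1 peaks. All 3 BRG1 replicates had a peak in 468 (99.4%, 98.1 to 99.8%), beside 37.7% of all, and in each of the 427 promoter domains. Among narrower TSS peaks the same BRG1 support was found at 86.1%, and at 99.0% of those supported by all 3 PBRM1 replicates. By length, the share was 98.8% from 1000 bp up to 1250 bp and 99.5% from there up to 1500 bp, close to the share at the domains. The 3 exceptions held no TSS: the intergenic domain at chr15:26171306-26172807 without any BRG1 or PBRM1 replicate peak, and intronic domains in *Ppm1e* and *Fbxw4*.

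Pooled BRG1 most often formed 1 long peak over the same DNA. Exactly 1 pooled BRG1 peak overlapped 378 domains, 2 or more overlapped 92 (19.5%, 16.2 to 23.4%), beside 1.86% of all pooled PBRM1 peaks, and 6 domains had 3. The share with 2 or more was 2.22% at narrower TSS peaks and 9.80% at the longest of these, from 1250 bp up to 1500 bp. With BRG1 peaks joined across gaps of up to 200 bp, it was 9.98% (47 of 471) at the domains. The median share of bases under pooled BRG1 peaks was 93.6% in the domains and 95.7% in the narrower TSS peaks, so such coverage is not particular to the domains. A pooled BRG1 peak of at least 1500 bp itself was present at 57.3% of the domains and at 2.46% of the narrower TSS peaks. Single BRG1 replicates were more broken up. Replicates 1, 2 and 3 had 2 or more peaks in 195, 229 and 223 of the 471 domains, and at 4.52, 4.93 and 5.78% of narrower TSS peaks. They held a peak of at least 1500 bp in 77, 45 and 37 domains, and 367 domains had none in any BRG1 replicate. A longer interval meets more peaks by its length alone.

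The 6 domains with 3 pooled BRG1 peaks covered *Mpp2*, *Hsp90ab1*, *Magi2*, *Tnfrsf14*, *Plekha2* and *Bace2*. At *Hsp90ab1* (chr17:45572449-45574750), BRG1 replicates 1, 2 and 3 had 3, 3 and 2 peaks, with fold enrichments up to 6.84, 7.24 and 7.95. At *Mpp2* (chr11:102087053-102089413) they had 2, 2 and 3 peaks and fold enrichments of 5.19, 5.98 and 5.27. In both domains every BRG1 library showed more than 1 separate peak.

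Around the TSS, BRG1 signal at the promoter domains was wider and, relative to its background, lower than at narrower TSS peaks. Within 1000 bp to each side of a TSS, the middle one of those inside the peak, BRG1 peaks covered a mean of 1158, 1079 and 1022 bases in BRG1 replicates 1, 2 and 3 at the promoter domains. At the narrower TSS peaks they covered 650, 596 and 585. The mean difference was 476 ± 35.9 bases (SD, n = 3), in the same direction in 3 of 3 replicates (two-sided exact sign-flip permutation test over replicates, p = 0.25, the smallest that 3 replicates can give).

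The highest BRG1 fold enrichment in that window had a median of 6.89, 6.98 and 7.20 at the domains and 8.16, 8.21 and 8.30 at the narrower peaks. The difference was −1.20 ± 0.0848 (SD, n = 3), lower in 3 of 3 replicates (two-sided exact sign-flip permutation test, p = 0.25). Narrower peaks without a BRG1 peak in the window were left out of this median, 11806, 11621 and 11622 of 12541 remaining. The sign of this value depends on where the line between broad and narrower is drawn: at 1000 bp in place of 1500 bp it was 0.137.

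The fold enrichment divides by a local background, and the numerator moved the other way. The pileup of the same BRG1 peaks, scaled to 1000000 fragments per library, had medians of 3.49, 3.65 and 3.66 at the domains and 2.74, 2.87 and 2.90 at the narrower peaks, a mean ratio of 1.27. The background that MACS divided by, approximated as pileup over fold enrichment on the same scale, was 0.504, 0.528 and 0.523 against 0.333, 0.353 and 0.347, a mean ratio of 1.51. Both were higher at the domains in 3 of 3 replicates (exact sign-flip permutation test, p = 0.25 each). MACS takes this background over up to 10000 bp around a peak of the same library, since no control was given, and its part in the lower fold enrichment was not tested.

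**Figure D3:**
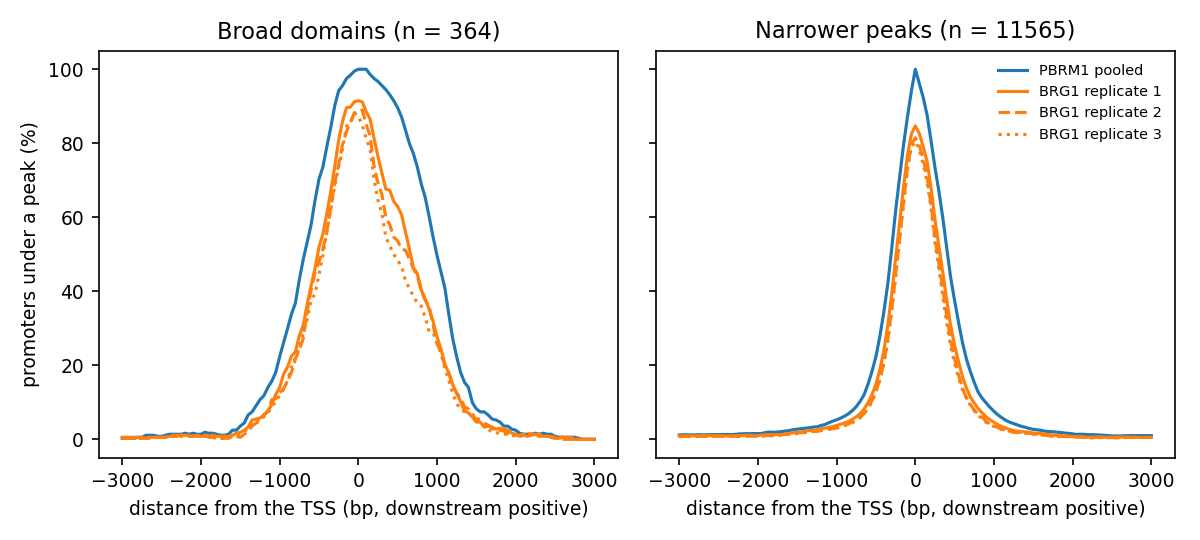
Percent of promoters under a peak (vertical axis) at each distance from the TSS in bp (horizontal axis, downstream positive) for the pooled PBRM1 list (blue) and the 3 BRG1 replicates (orange), at 364 broad domains (left) and 11565 narrower peaks (right) whose genes run on 1 strand. At 500 bp downstream, BRG1 replicates cover 48.4 to 62.9% of the domains and 20.5 to 25.3% of the narrower peaks.

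Across all PBRM1 peaks over a protein-coding TSS, both measures changed gradually with PBRM1 length. BRG1-covered bases in replicate 1 went from 356 at peaks under 500 bp to 735 at 750 to 999 bp, 1146 at 1500 bp up to 1750 bp and 1215 at 2000 bp or more. The median BRG1 fold enrichment in the same replicate was 5.92, 9.03, 7.11 and 6.18 in those classes. Peaks of 750 to 999 bp thus had the highest fold enrichment, in all 3 replicates, and the domains returned toward the level of the shortest peaks.

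**Figure D4:**
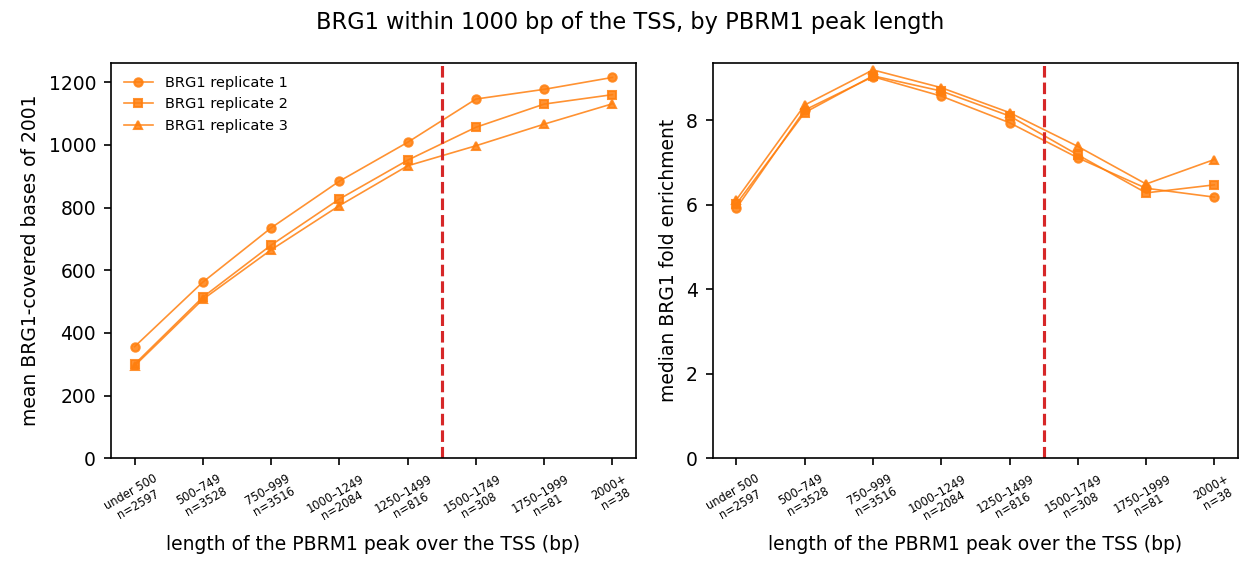
BRG1-covered bases (left, mean within 1000 bp to each side of the TSS) and highest BRG1 fold enrichment (right, median) for classes of PBRM1 peak length in bp, 1 line per BRG1 replicate, with the number of peaks under each class. The red dashed line is the 1500 bp threshold; covered bases are highest in the longest class (1131 to 1215) and fold enrichment is highest at 750 to 999 bp (9.03 to 9.19).

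The DNA of these domains was rich in G and C. The median G and C content was 64.0% over the whole domain (interquartile range 60.7 to 66.6%). In the fixed window of 1000 bp to each side of the TSS, which does not depend on the length of the peak, it was 60.5% (57.8 to 63.1%) at the promoter domains and 53.9% (50.3 to 57.7%) at the narrower peaks. The observed to expected ratio of CpG in that window, a usual mark of CpG islands, was 0.735 (0.637 to 0.818) against 0.592 (0.452 to 0.711). For G and C content the interquartile ranges did not overlap. It was 52.8% at peaks under 500 bp, 52.2% at 500 to 749 bp and 53.4% at 750 to 999 bp, and higher in each longer class up to 62.0% at 2000 bp or more. The contrast belongs to this wider window, much of which lies outside a narrower peak. Within 150 bp to each side of the summit, the medians were 65.8% at the promoter domains and 65.1% at the narrower peaks. Over the peak itself, the CpG ratio was 0.764 against 0.733. The part of G and C content in the length of the peaks was not tested.

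Short strings within 150 bp to each side of the summit, on either strand, were counted beside other promoters. The GC box GGGCGG was present in 69.3% of promoter domains, 62.8% of narrower TSS peaks and 28.2% of all pooled PBRM1 peaks, and its excess over all peaks is shared by both kinds of promoter. The CRE string TGACGTCA was present in 16 of 427 promoter domains (3.75%), 2.30% of narrower TSS peaks and 1.02% of all peaks. CCAAT was in 26.7, 28.5 and 27.3%, and TGAGTCA was in 3.04, 3.35 and 8.45%. A match describes letters and not a binding site.

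Gene classes were counted over 18 lists of pathways and families, beside the 2.39% of all protein-coding genes with a TSS in a broad domain. Most lists had a higher share than this, but their counts were 9 or fewer, promoters with a PBRM1 peak of any width were also more frequent in most of them, and the lists were drawn up with results of these data known. Across the lists and the marker genes, 56 of 750 genes had a TSS in a domain.

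The cytoskeleton and adhesion list had the highest share, with 7 of 31 genes (22.6%). They were *Vim* (vimentin, the intermediate filament of mesenchymal cells), *Myh9* (nonmuscle myosin heavy chain), *Tpm2* and *Tpm4* (tropomyosins), *Cnn3* (an actin-binding calponin), *Itga5* (the fibronectin receptor subunit) and *Tubb6* (a tubulin). At *Vim* (chr2:13573531-13575050, 1520 bp), PBRM1 replicates had fold enrichments of 6.26, 4.47 and 4.29 and covered 88.8, 97.6 and 85.3%. BRG1 had 5.57, 6.17 and 6.87 and covered 95.5, 76.2 and 96.2%. Both antibodies thus covered most of the *Vim* domain in every library. The other cytoskeletal genes mostly had a narrower peak (22 of 31).

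Immediate early and AP-1 genes, which respond within minutes to growth factors or stress, had 4 of 26 (15.4%), *Jun*, *Egr1*, *Atf3* and *Ier2*. *Egr1* had a domain of 1996 bp with PBRM1 fold enrichments of 5.72, 5.02 and 4.90, and *Atf3* one of 1613 bp with 6.61, 5.62 and 5.84. *Ier2* had the lowest fold enrichment of all domains over a protein-coding TSS (2.81 in the pooled list), with no peak in PBRM1 replicate 3. BRG1 at *Ier2* was also low, with 3.10, 3.54 and 3.37. KLF and SP factors had 3 of 25 (*Klf4*, *Klf11* and *Klf16*).

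Replication-dependent histone genes had 9 of 64 (14.1%), in clusters such as *Hist2h2ab*, *Hist2h2ac* and *Hist2h2be*, which share 1 domain of 1844 bp, so these genes are not separate domains. SWI/SNF subunits had 4 of 28 (14.3%): *Smarca2*, the alternative ATPase BRM, *Smarcd3*, *Dpf3* and *Ss18l1*. *Dpf3* had a high fold enrichment for BRG1, from 12.3 to 14.2 in the 3 replicates, against 8.73, 7.95 and 8.12 for PBRM1. *Smarcd3* had no peak in PBRM1 replicate 1 and 3.93 and 3.53 in the others. The genes of both antigens had narrower peaks, 535 bp at *Pbrm1* and 1169 bp at *Smarca4*.

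Signaling genes were spread over several lists. TGF-beta and BMP genes had 3 of 37, *Bmp2*, a growth factor of decidualization, its receptor gene *Bmpr2* and *Ltbp1*. Wnt, Notch and Hedgehog genes had 4 of 45, the receptor genes *Fzd7* and *Fzd8*, *Tcf7l1* and the Notch effector *Rbpj*. Growth factor signaling had 3 of 40, the receptor genes *Fgfr2* and *Fgfr3* and the feedback inhibitor *Spry4*. At *Bmp2* (1555 bp), PBRM1 fold enrichment was 4.92, 3.84 and 3.34, and BRG1 was 4.27, 4.28 and 4.72. PBRM1 peaks covered 44.9, 65.7 and 17.2% of that domain and BRG1 peaks 77.9, 77.1 and 78.3%, so that the BRG1 replicates were the more even.

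The remaining lists held 1 to 4 genes with a domain each. Cell cycle and p53 genes had 3 of 40 (*Cdkn1a*, *Ccng2* and *E2f3*), transcription machinery and RNA processing 3 of 42 (*Polr2a*, *Ell* and *Hnrnpa2b1*) and other chromatin regulators 4 of 68 (*Ep300*, *Kmt2e*, *Kdm2a* and *Ctcf*). Steroid receptors and coregulators had 2 of 14 (14.3%), the coactivator *Ncoa3* and *Hsp90ab1*. Mesenchymal transcription factors had 3 of 80 (*Id3*, *Cebpa* and *Cebpd*), collagens and matrix 2 of 34 (*Col5a1* and *Adamts1*) and chaperones and ER stress 1 of 25 (*Hsp90b1*).

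The ribosomal protein, *Hox* and long noncoding RNA lists had 1, 0 and 0 genes with a domain. Such counts are too small to set these lists apart from the 2.39% of all protein-coding genes, and noncoding genes are not part of that set. Of 73 cytosolic ribosomal protein genes, 71 had only a narrower peak and 1, *Rpl7*, a domain that it shares with the divergent *Rdh10*. None of 39 *Hox* genes had a domain, 12 had a narrower peak and 27 had neither. None of 19 long noncoding RNA genes had one, although 13 had a narrower peak. *Hand2*, the stromal transcription factor gene induced by progesterone, had a narrower peak of 337 bp with a fold enrichment of 4.11 at its TSS.

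**Figure D5:**
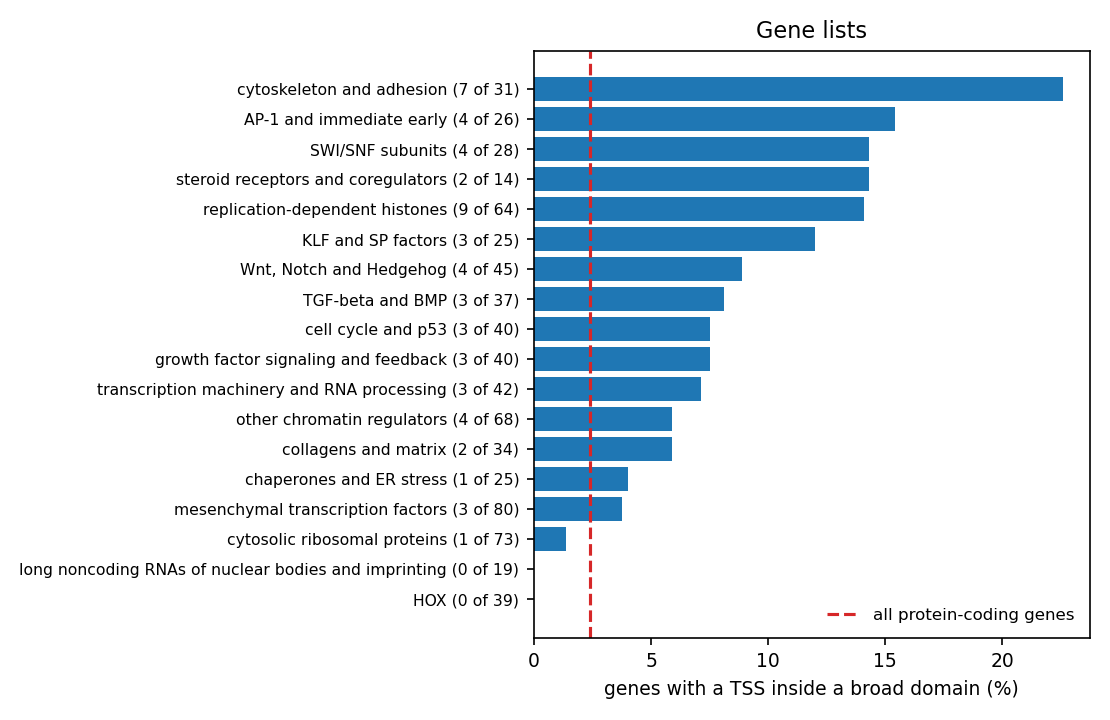
Percent of genes of each list with a TSS inside a broad domain (horizontal axis, bars), with the number of such genes and of genes found on chromosomes 1 to 19 beside each list name. The red dashed line is the share of all protein-coding genes, 2.39%; bars run from 0 of 39 *Hox* genes to 7 of 31 cytoskeletal and adhesion genes.

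Cell type markers were read in the same way, as a check of the label. A PBRM1 peak of any width lay over a TSS of 9 of 12 stromal markers, 5 of 10 epithelial, 3 of 4 muscle, 2 of 4 endothelial and 0 of 4 blood markers (*Ptprc*, *Cd68*, *Adgre1* and *Csf1r*), beside 60.6% of protein-coding genes, and only *Vim* had a domain. The stromal genes *Col1a1*, *Hoxa11* and *Nr2f2* had no peak at a TSS, and the epithelial genes *Krt8*, *Krt18* and *Cdh1* had peaks of 185, 493 and 624 bp. A peak marks occupied DNA and not expression, and the part of epithelial cells in these libraries was not tested.

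Genes with a domain were listed as having less RNA without PBRM1 at about the share of other genes with a peak. Of the 497 genes with a domain, 14 (2.82%) were in the supplementary list of genes with less RNA in *Pbrm1*-deficient stromal cells, beside 2.92% of the 12108 genes with only a narrower peak and 2.19% of all protein-coding genes. The 14 were *Cavin3*, *Cebpd*, *Hist2h2ac*, *Hist2h2bb*, *Kif1a*, *L3hypdh*, *Lcmt1*, *Map1a*, *Mpp2*, *Ntn4*, *Slc6a15*, *Smc4*, *Trib2* and *Wls*. As a share of that list, they were 3.07% of its 456 protein-coding genes on chromosomes 1 to 19, and 77.4% had only a narrower peak. *Mpp2*, *Ntn4*, *Trib2* and *Wls* were also in the list of target genes (4 of 161), which was chosen with peaks of these same samples. At *Wls*, which encodes a carrier that secretes Wnt proteins, the domain measured 1728 bp with PBRM1 fold enrichments of 5.44, 4.59 and 4.57.

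Outside protein-coding promoters, 9 domains covered only a TSS of a noncoding gene and 35 covered no TSS. Of the 35, 10 touched an exon, 11 lay in an intron and 14 were intergenic. A protein-coding TSS lay within 2000 bp of 7 of them, and 17 were more than 10000 bp from the nearest. The 5 longest were in an exon of the predicted gene *Gm21738* (chr14:19415730-19417913, 2184 bp), in an intron of *Tmem267* (chr13:119596538-119598646, 2109 bp), in exonic sequence where *B430305J03Rik* and *Rap2b* lie (chr3:61363077-61365057, 1981 bp), in an exon of the noncoding gene *G730013B05Rik* (chr16:50528537-50530508, 1972 bp) and in an intron of *Gm26870* (chr9:3007566-3009501, 1936 bp).

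Some of the most extreme domains lay on repeated or very high-pileup sequence. The longest of all (chr17:39843054-39846817, 3764 bp) covered the start of the long noncoding gene *Gm26917*, with a pileup of 1899 fragments but a fold enrichment of 2.89. The highest fold enrichment, 28.1, was at the predicted gene *Gm10717* (chr9:3023883-3026019), where 97.4% of the bases are masked as repeats in the reference. BRG1 had 22.7, 21.9 and 24.0 there and PBRM1 24.2, 23.8 and 26.4, so that both antibodies gave nearly the same values. The domain at chr15:75085507-75087036, with a pileup of 681, had 22.3 in the pooled list and 25.2, 25.8 and 26.5 for BRG1. In all, 6 domains were masked over at least 80% of their bases or had a pileup of 300 or more, and without them the share of domains over a protein-coding TSS was 91.6%.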

How the data were processed

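ChIC-Seq libraries of 3 PBRM1 and 3 BRG1 replicates were read as deposited peak lists; the 2 IgG samples were not analysed here. Per the file headers and the methods, the authors trimmed reads (cutadapt), aligned them with Bowtie2 to GRCm38, removed low-quality and duplicate pairs and called narrow peaks with MACS 2.2.7.1 at q 0.05, without a control, per replicate and on pooled fragments. The deposited signal is the fragment pileup at the summit, the deposited ratio is its fold enrichment over the local background, and the deposited −log10 q-value comes from the same caller. The lists hold peaks from 8868777 to 16505239 fragments per replicate.

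From these lists, lengths, overlaps of at least 1 bp, covered bases and distances to TSSs of GENCODE transcripts were computed in Python 3.11.15 (pandas 2.3.3, scipy 1.17.1) and the overlap count was checked with bedtools 2.31.1. Sequences came from the RefSeq GRCm38 genome. Regions are not replicates, so medians or means were taken within each BRG1 library and tested over 3 libraries by exact sign flips, or 3 against 3 by exact permutation. Wilson 95% intervals cover counting error only. The overlap and test code was tested on simulated data.

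Named were the 12 longest promoter domains, the 5 longest without a TSS, 3 peaks on either side of the threshold, domains with the most BRG1 peaks (6 tied), up to 5 that lacked a replicate peak, genes of the lists, *Hand2*, *Pbrm1* and *Smarca4*. *Nfe2l2*, *Jkamp*, *L3hypdh*, *Ier2*, the repeated-sequence domains and the genes of the supplementary lists were named after their values were seen. The members, lists and tests were chosen with earlier results of these data known. Alternatives covered the length threshold, overlap, q-value, TSS set, comparison peaks, window, left-out replicates and the replicate number as a block.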

Additional observations from a re-analysis of the deposited data

Results flagged for a closer look

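The rule kept to chromosomes 1 to 19, and 13 pooled PBRM1 peaks of at least 1500 bp lay elsewhere. There were 6 on chromosome X, over *Usp9x* (1778 bp), *Kdm6a* (1847 bp), *Hcfc1* (1999 bp), *Yipf6* (1539 bp), *Magee1* (1634 bp) and a site without a protein-coding TSS (1618 bp, no peak in PBRM1 replicate 3). Another 7 lay on unplaced sequence or the mitochondrial genome, where the 2 mitochondrial peaks measured 4592 and 5237 bp with fold enrichments of 3.33 and 3.69. All 7 also had a peak in each BRG1 replicate. They stand out as signal outside the sequences that were analysed.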

How the results depend on the processing

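The number of domains was 4067 at a threshold of 1000 bp and 41 at 2000 bp. The share over a protein-coding TSS fell to 81.8% at 1000 bp. The share with a peak in all PBRM1 replicates was 41.2% when their peaks had to cover 50% of the domain, 77.1% when only peaks with a −log10 q-value of 5 or more were kept, and 94.7 to 98.1% with 1 replicate left out. For BRG1 these values were 70.5, 97.2 and 99.4 to 99.6%. The share with 2 or more pooled BRG1 peaks was 9.98% after joining peaks across 200 bp, 10.2% at 1000 bp and 29.3% at 2000 bp. The BRG1 fold enrichment difference turned to 0.137 at 1000 bp, where both sets hold shorter peaks (the cause was not tested). It was −1.25 to −1.17 with a replicate left out. The difference in covered bases kept its direction under every alternative run (370 to 556; 460 to 495 with a replicate left out). The difference in wide peaks per list turned to 1.33 at 2000 bp (the cause was not tested) and was −40.7 to −10.2 with a replicate left out. G and C content was 65.4% around the summit, beside 65.1% at narrower TSS peaks.

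With the replicate number as a block, the paired difference in wide peaks stayed at −26.3 (exact permutation test, p = 0.50). It is a description too, since the rule used PBRM1 length. Same-numbered PBRM1 and BRG1 replicates did not deviate together over 445 domains (r = 0.0151, −0.0200 and −0.0516). Such values cannot show whether they shared a preparation, which the labels do not say. Leaving out repeat-rich domains, the highest BRG1 peak anywhere in the interval, and further comparison sets for covered bases were chosen after seeing the data.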
